A study of Mus musculus with 13 samples.

Results

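The 28 genes described here are those of sterol synthesis and cholesterol homeostasis in mouse sciatic nerves with and without Raptor in Schwann cells (SCs). They were taken by symbol from a list of pathway enzymes and regulators, and are 28 of the 40787 genes in the count table. The list was chosen with earlier results of these data known. All 28 were found. They comprise 19 enzymes. Of these, 8 belong to the mevalonate arm, 3 make squalene or carry it to lanosterol, and 8 lead from lanosterol to cholesterol. The others are 4 genes that control SREBP2, 2 genes of sterol transport and esterification, and 3 genes of the liver X receptor (LXR) branch.

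Cholesterol is built from acetyl-CoA through mevalonate, farnesyl diphosphate, squalene and lanosterol. Transcription of the enzymes is driven by SREBP2, a membrane-bound factor that SCAP escorts to the Golgi for cleavage when sterols are scarce and that the INSIG proteins hold in the endoplasmic reticulum when sterols are plentiful. LXRs are activated by oxysterols and drive sterol export and, through the ubiquitin ligase encoded by Mylip, loss of lipoprotein receptors. Myelin is rich in cholesterol, and SCs make much of it themselves. Raptor is the defining subunit of mTORC1, a kinase complex that promotes lipid synthesis through SREBPs.

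RNA was sequenced from 13 sciatic nerves of C57BL/6 mice, 1 library per nerve, after unilateral nerve crush. All mice carried floxed Rptor alleles and had received tamoxifen at 2 months of age. Controls lacked Cre, and RaptorKOs carried a tamoxifen-inducible Cre whose promoter limits recombination to cells that use it, in the nerve mainly SCs. Surgery followed 2 months after tamoxifen, and nerves were taken 5 days post-crush (5 dpc). There were 3 control injured, 3 RaptorKO injured, 3 control contralateral and 4 RaptorKO contralateral nerves. Injured nerves are the part distal to the crush, and the contralateral nerves of crushed mice serve as the uninjured state. In the titles an injured and a contralateral nerve share a number, read here as 1 mouse. Of RaptorKO 4 only the contralateral nerve was used here. The epineurium was removed and whole nerves were used, so the libraries hold RNA of SCs, fibroblasts, macrophages, vessels and other cells. In such bulk RNA, fewer cells of a type and less RNA per cell cannot be told apart.

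Library totals ranged from 8200458 to 13581775 counts. Levels are counts per 1000000 (CPM) after TMM scaling. Rptor itself, counted over the whole gene, was at 43.9 to 52.7 CPM in control and 22.1 to 28.2 CPM in RaptorKO contralateral nerves, and at 35.2 to 48.8 against 23.3 to 28.8 CPM in injured nerves. Both libraries of control replicate 3 had more Xist than Y-linked counts, unlike the other 11 libraries, so sex is not balanced between genotypes. Adipocyte markers summed to 315.2 CPM in RaptorKO contralateral 3, to 83.59 CPM in control contralateral 3 and to 48.38 CPM in control injured 3. The SC and myelin markers (Mbp, Mag, Prx, Sox10, S100b and Egr2) were present in every library.

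Upstream sequences are shown for 4 enzyme genes that were lower in RaptorKO contralateral nerves and for Srebf2, which encodes SREBP2 and was not. The windows are those of RefSeq on GRCm38.p6, of 250 bases before to 50 bases after a start site. They are printed 5′ to 3′ on the strand of the gene, cut at the first base that RefSeq or GENCODE M21 gives as transcribed. Capitals mark CCAAT or its reverse complement ATTGG, the box bound by NF-Y, which acts with SREBPs at sterol genes, and in Hmgcs1 also the letters of a sterol regulatory element.
Hmgcs1 (chr13:119690101-119690350, plus strand): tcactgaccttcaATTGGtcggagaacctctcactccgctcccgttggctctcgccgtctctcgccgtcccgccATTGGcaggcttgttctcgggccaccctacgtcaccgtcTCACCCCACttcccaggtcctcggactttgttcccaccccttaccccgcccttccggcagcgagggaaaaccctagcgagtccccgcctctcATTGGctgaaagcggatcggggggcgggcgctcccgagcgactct
Nsdhl (chrX:72918271-72918520, plus strand): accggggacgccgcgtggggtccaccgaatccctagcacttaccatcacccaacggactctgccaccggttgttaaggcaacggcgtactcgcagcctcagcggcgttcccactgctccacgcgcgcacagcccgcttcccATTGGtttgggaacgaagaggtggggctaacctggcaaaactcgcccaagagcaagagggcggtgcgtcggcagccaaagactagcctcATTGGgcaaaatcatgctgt
Hsd17b7 (chr1:169969242-169969455, minus strand): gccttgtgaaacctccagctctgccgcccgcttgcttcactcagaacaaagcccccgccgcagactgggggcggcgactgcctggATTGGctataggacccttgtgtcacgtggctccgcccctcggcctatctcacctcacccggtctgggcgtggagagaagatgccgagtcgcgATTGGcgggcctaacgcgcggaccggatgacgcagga
Sc5d (chr9:42264301-42264550, minus strand): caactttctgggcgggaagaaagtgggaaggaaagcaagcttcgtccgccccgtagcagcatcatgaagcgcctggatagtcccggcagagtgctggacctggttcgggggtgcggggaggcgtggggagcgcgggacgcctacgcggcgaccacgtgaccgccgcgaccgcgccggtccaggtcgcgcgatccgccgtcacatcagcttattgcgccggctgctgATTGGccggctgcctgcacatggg
Srebf2 (chr15:82147019-82147180, plus strand): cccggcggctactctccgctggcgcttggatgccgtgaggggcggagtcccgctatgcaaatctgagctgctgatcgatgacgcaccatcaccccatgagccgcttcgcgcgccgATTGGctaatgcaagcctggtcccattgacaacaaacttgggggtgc
A window was given for 24 of the 28 genes, not for Fdps, Fdft1, Sqle and Stard4. CCAAT, searched on both strands, was in the windows of 20 of the 24 (83.3%), against 42.3% of 9188 other genes tested in contralateral nerves and 41.1% of all genes with a window. The 4 without it were Acat2, Nr1h2, Nr1h3 and Scap. All 9 genes with a window that were lower in RaptorKO contralateral nerves held it, as did 11 of the 15 that were not called. These counts use whole windows. Cut as the printed sequences are, the called genes Idi1, Msmo1 and Tm7sf2 held none. The same was so for Cyp51 and Dhcr7, which were not called. The GC box GGGCGG, on either strand, was likewise in 20 of the 24 (83.3%), against 70% of the other genes tested and 38.2% of all genes. The sterol regulatory element TCACNCCAC was found in Hmgcs1 alone, as TCACCCCAC beginning 137 bases before the start site, and in 1.44% of all genes. Only these exact letters were searched, and other forms of the element were not. These are matches of letters in a fixed window, and binding was not measured.

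In uninjured control nerves the genes differed widely in level. Per kilobase of exon, Hmgcs1 was highest at 241 CPM per kb (216 to 257, n = 3) and lay above all others. Sc5d at 67.7 (56.3 to 80.4) and Idi1 at 67.1 CPM per kb (60.1 to 73.1) followed and overlapped. Fdft1 at 56 (53.4 to 58) and Cyp51 at 52.5 CPM per kb (47.2 to 57.3) also overlapped each other, and both lay below every library of Idi1. Soat1, which encodes the enzyme that esterifies cholesterol for storage, was lowest at 2.71 CPM per kb (2.42 to 3.06), below Tm7sf2 at 4.43 (4.3 to 4.52). The lengths count all annotated exons of a gene, and these ranks depend on them. In CPM alone, Soat1 (mean 26.53) lay above Tm7sf2 (mean 19.49). The 19 enzymes tended to order the control libraries alike. Replicate 1 had the lowest level for 13 of the 19, and replicate 3 the highest for 13.

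The first question was whether loss of Raptor alone altered these genes in uninjured nerves. Enzyme transcripts from Hmgcs1 near the start of the path to Sc5d near its end were lower in RaptorKO contralateral nerves, whereas Srebf2 was not called. The sum over all 19 enzymes was 3043, 3379 and 3580 CPM across controls against 2409, 2274, 2217 and 2357 CPM across RaptorKOs. No RaptorKO library reached the lowest control. Calls rest on edgeR's quasi-likelihood test, with 0.05 as the limit for the adjusted p and a minimum fold change of 1.2. By this measure 11 of the 28 genes were lower and 0 higher, where 5.68% and 4.49% of the 11878 genes tested were lower and higher. The median log2 fold change (RaptorKO over control) was -0.30 over the 28 genes, of which 26 lay below 0, and 0.01 over all genes tested. Without regard to a test, RaptorKO and control libraries did not overlap for 17 genes, all lower, where 13.7% of all genes tested were lower and 9.98% higher without overlap.

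**Figure D1:**
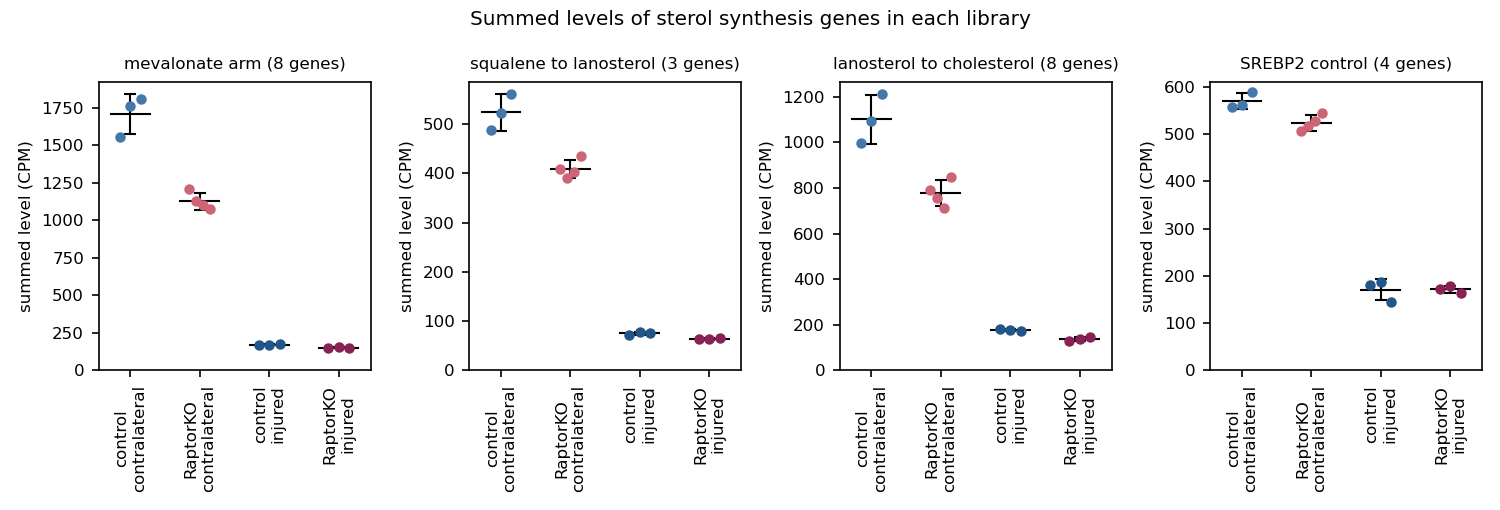
Summed level in CPM of 3 groups of enzymes and of the 4 SREBP2 control genes (vertical axes, from 0) in each library (points) by group, with the mean and SD (lines). In contralateral nerves the RaptorKO libraries lie below every control library in all 4 panels, and in injured nerves all levels are far lower.

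In the mevalonate arm 3 of 8 enzymes were called. Hmgcs1 (ENSMUSG00000093930, chr13:119690379-119708260 of GRCm38, plus strand) encodes HMG-CoA synthase, which makes the precursor of mevalonate. It had 993, 1145 and 1181 CPM in controls against 719, 635, 643 and 660 CPM in RaptorKOs. The groups were well apart, with a log2 fold change of -0.72 (SE 0.085, adjusted p = 5.01e-04), the largest of the 28 genes, which left 60% of the control mean. Fdps, farnesyl diphosphate synthase, had 140, 137 and 152 CPM in controls against 107, 105, 97.2 and 93.3 CPM in RaptorKOs (log2 fold change -0.49, SE 0.079, adjusted p = 0.00352). Idi1, the isomerase of isopentenyl diphosphate, had 211, 256 and 239 CPM in controls against 188, 172, 169 and 155 CPM in RaptorKOs (-0.44, SE 0.09, adjusted p = 0.0127). Neither gene had a RaptorKO library within the control range. The 5 others were not called. They are the thiolase Acat2 (-0.09), the kinases Mvk (-0.21) and Pmvk (-0.32), the decarboxylase Mvd (-0.31) and Ggps1 (-0.01), which makes geranylgeranyl diphosphate for protein prenylation rather than sterols. Fdps shares 26.7% of its exonic bases with another annotated gene on the same strand, and Hmgcs1 and Idi1 share 12.1% and 9.2% with genes on the other strand. The sources used here do not state whether counting used strand.

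From the making of squalene to lanosterol, 2 of 3 enzymes were called. Lss, lanosterol synthase, which closes the sterol rings, had 114, 129 and 142 CPM in controls against 95.6, 84.1, 82.3 and 99.5 CPM in RaptorKOs (log2 fold change -0.49, SE 0.1, adjusted p = 0.0145). Sqle, the squalene epoxidase and a rate-controlling step, had 148, 154 and 174 CPM in controls against 129, 127, 134 and 121 CPM in RaptorKOs (-0.30, SE 0.078, adjusted p = 0.0381). Both fell without overlap, but Sqle lost its call in 7 of 13 alternative analyses (adjusted p up to 0.174). Fdft1, squalene synthase, was just short of the threshold (-0.29, SE 0.083, adjusted p = 0.0523). It had 226, 238 and 245 CPM in controls against 185, 179, 186 and 214 CPM in RaptorKOs, again without overlap, and shares 18.3% of its exonic bases with Ctsb on the other strand.

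From lanosterol to cholesterol, 5 of 8 enzymes were called. Msmo1, a methylsterol oxidase, had 243, 250 and 274 CPM in controls against 179, 164, 147 and 176 CPM in RaptorKOs (log2 fold change -0.60, SE 0.089, adjusted p = 0.0021). Nsdhl and Hsd17b7 act with Msmo1 to strip methyl groups from the sterol nucleus. Nsdhl had 81.2, 83.7 and 85.8 CPM in controls against 64.2, 53.2, 50.3 and 58.1 CPM in RaptorKOs (-0.55, SE 0.096, adjusted p = 0.00568). Hsd17b7 had 107, 118 and 128 CPM in controls against 80.0, 80.3, 81.1 and 86.8 CPM in RaptorKOs (-0.50, SE 0.085, adjusted p = 0.00503). These 3 genes were thus lower together, with every RaptorKO library below every control.

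Tm7sf2, a sterol reductase, was a low transcript with tight groups. It had 19.9, 19.6 and 18.9 CPM in controls against 11.6, 12.6, 12.5 and 11.5 CPM in RaptorKOs (log2 fold change -0.67, SE 0.12, adjusted p = 0.00711), and shares 12.1% of its exonic bases with Vps51 on the same strand. Sc5d, the desaturase that forms the direct precursor of the last step, was the most variable enzyme of those called. It had 274, 323 and 391 CPM in controls against 203, 202, 186 and 260 CPM in RaptorKOs, so that RaptorKO contralateral 4 came near the lowest control (-0.61, SE 0.14, adjusted p = 0.0213). Cyp51, the lanosterol demethylase (-0.24), Dhcr7, the last reductase (-0.37), and the isomerase Ebp (-0.13) were not called. Hmgcs1, Fdps, Tm7sf2, Msmo1, Nsdhl and Hsd17b7 were called in all 13 alternative analyses. Without control contralateral 2, or without control contralateral 3 with its Xist counts, 7 of the 28 genes were called, and Idi1, Lss, Sqle and Sc5d were those lost in both cases.

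None of the 4 genes that control SREBP2 was called. Srebf2 had a log2 fold change of -0.02 (SE 0.077, adjusted p = 0.906), Insig1 of -0.13 (SE 0.13, adjusted p = 0.594) and Insig2 of -0.01 (SE 0.13, adjusted p = 0.974). Srebf2 lay at 256, 273 and 266 CPM in controls against 236, 261, 269 and 266 CPM in RaptorKOs, with overlapping groups. Scap was lower in every RaptorKO library but not called (-0.27, SE 0.08, adjusted p = 0.0621). In sterol handling, Stard4, a cytosolic carrier of cholesterol, was next to the threshold. It had 54.9, 57.6 and 58.4 CPM in controls against 47.0, 41.2, 46.7 and 47.7 CPM in RaptorKOs (-0.30, SE 0.089, adjusted p = 0.0593), and Soat1 was not called (-0.21). In the LXR branch the receptor genes Nr1h2 (0.09) and Nr1h3 (0.06) were not called. Mylip, an LXR target, fell from 74.2, 61.6 and 66.7 CPM in controls to 53.7, 45.7, 43.0 and 42.2 CPM in RaptorKOs (-0.53, SE 0.11, adjusted p = 0.0124), and lost its call without control contralateral 1 (adjusted p = 0.0709).

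**Figure D2:**
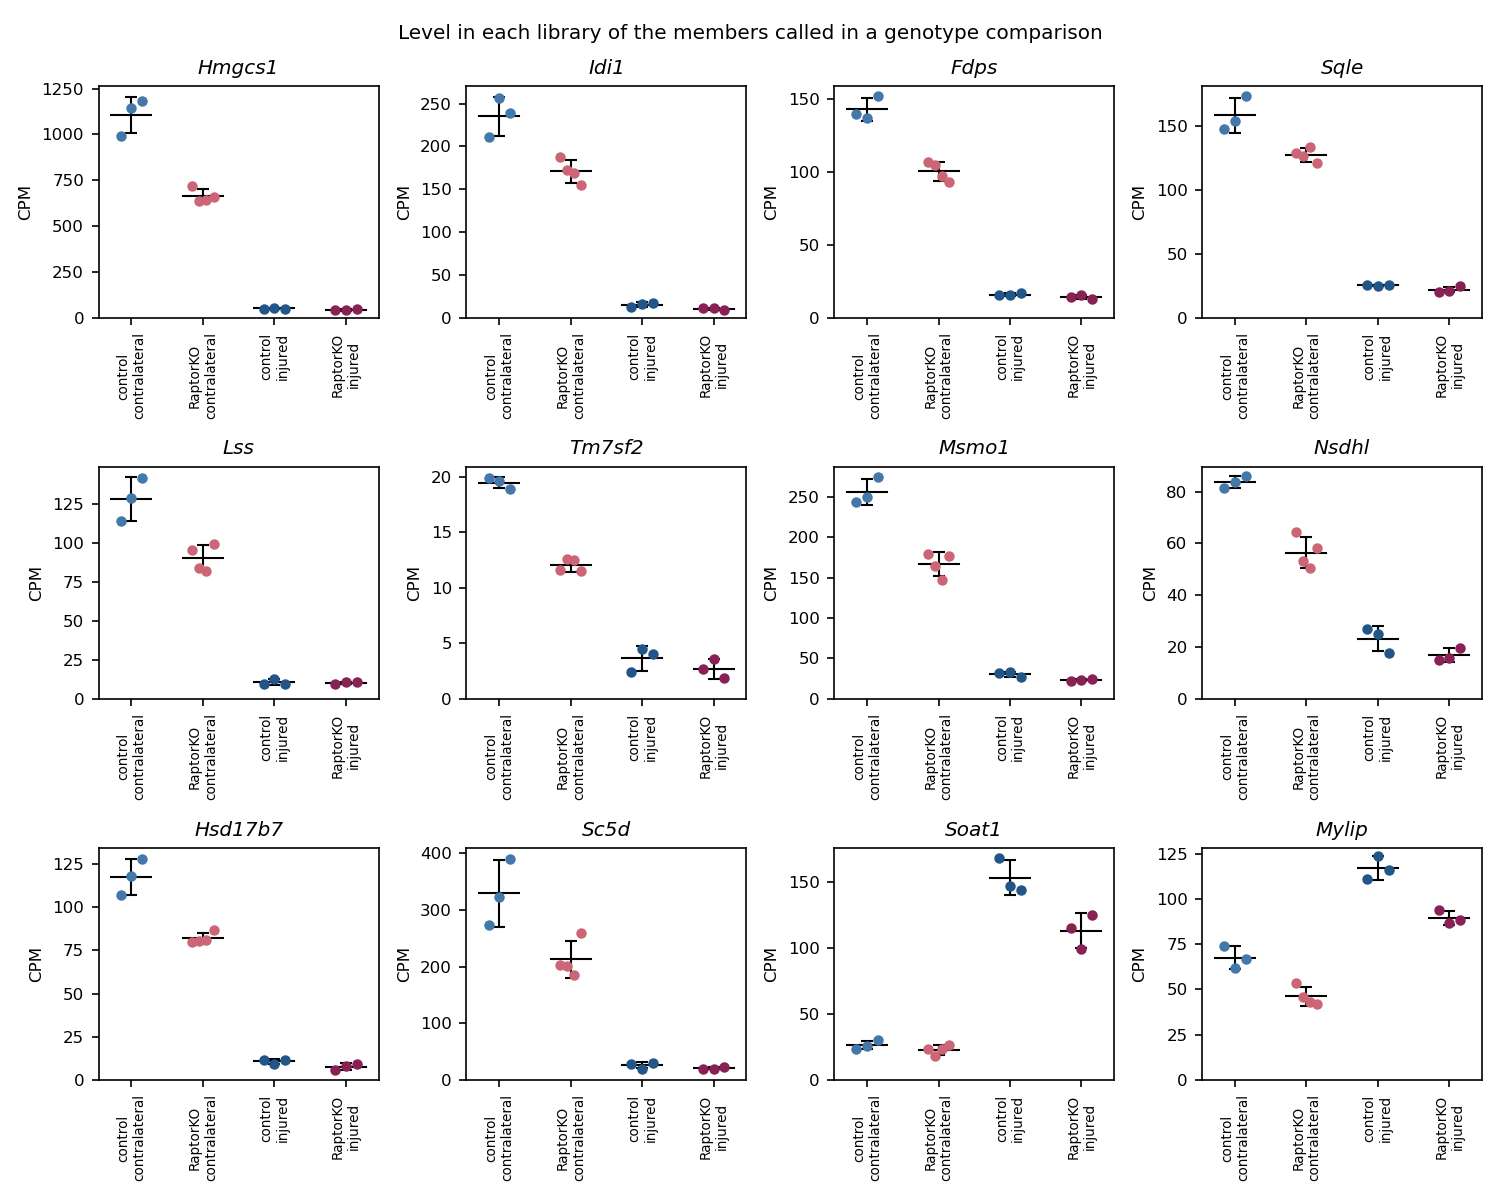
Level in CPM (vertical axes, from 0) in each library (points) of the 12 genes called in a genotype comparison, with the mean and SD (lines). Hmgcs1, for example, had 993 to 1181 CPM in control contralateral, 635 to 719 CPM in RaptorKO contralateral and 41.0 to 53.5 CPM in injured nerves, whereas Soat1 and Mylip were higher in injured nerves.

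Cell type markers also differed between these groups. The summed SC and myelin markers were 30651 to 33074 CPM in control and 28620 to 33453 CPM in RaptorKO contralateral nerves, and 1 of the 6 was called lower. The 19 enzymes came to 9.22%, 10.2% and 11.7% of that marker sum in controls and to 8.22%, 6.9%, 7.75% and 7.05% in RaptorKOs. This sum is mostly Mbp. Against single markers the enzyme sum was lower in RaptorKOs without overlap for Mbp, Mag and Prx, and overlapped between genotypes for Sox10 and Egr2. S100b itself was lower in RaptorKOs (-0.93, SE 0.094, adjusted p = 0.000191), by more than any enzyme, and against S100b the enzyme sum was higher. Fibroblast markers summed to 4731 to 5642 CPM in controls against 7600 to 10425 CPM in RaptorKOs (3 of 5 called higher), macrophage markers to 51.55 to 71.44 and 90.35 to 122.8 CPM (2 of 5 tested), and mast cell markers to 11.96 to 58.37 and 79.95 to 137.7 CPM (2 of 5). The part of these cells in the differences of the sterol genes was not tested. Leaving out RaptorKO contralateral 3, the library with most adipocyte markers, left 11 genes called.

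The same comparison was made in injured nerves. Here most synthesis genes were low in both genotypes, and only Soat1 and Mylip were called, both lower in RaptorKOs. That is 2 of the 27 genes tested, with 0 higher, where 4.44% of 12040 genes tested were lower and 4.09% higher. Tm7sf2 had too few counts to be tested. The median log2 fold change was -0.19, with 23 of 27 genes below 0, and it was 0.00 over all genes tested. Control and RaptorKO injured libraries did not overlap for 10 of the 27 genes, all lower in RaptorKOs and among them Hmgcs1, Idi1, Fdft1, Sqle, Msmo1 and Insig1, where 14.6% of all genes tested were lower and 11.7% higher without overlap.

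Soat1 (ENSMUSG00000026600, chr1:156424525-156474331, minus strand) had 168, 147 and 144 CPM in control injured and 115, 98.7 and 125 CPM in RaptorKO injured nerves (log2 fold change -0.42, SE 0.11, adjusted p = 0.042). Mylip (ENSMUSG00000038175, chr13:45389742-45412022, plus strand) had 111, 124 and 116 CPM in controls against 94.0, 86.7 and 88.1 CPM in RaptorKOs (-0.37, SE 0.1, adjusted p = 0.0404). Both pairs of groups were apart, but both calls were close to the threshold. Soat1 lost its call in 7 and Mylip in 8 of 12 alternative analyses. Without any 1 of the 6 libraries at most 1 of the 27 genes was called.

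No synthesis enzyme was called, although 17 of the 18 tested lay below 0. The enzymes together had 418.3, 428 and 422.8 CPM in control and 341.8, 358 and 365.1 CPM in RaptorKO injured nerves, again without overlap. Idi1 had the lowest log2 fold change (-0.52, SE 0.21, adjusted p = 0.163), followed by Hsd17b7 (-0.47, SE 0.25, adjusted p = 0.315) and Nsdhl (-0.45, SE 0.19, adjusted p = 0.198). The standard errors of Idi1 and Hsd17b7 had been 0.09 and 0.085 in contralateral nerves, and here both genes were at 5.53 to 17.9 CPM. Hmgcs1 had 50.7, 53.5 and 49.9 CPM in controls against 41.0, 41.4 and 48.5 CPM in RaptorKOs (-0.22, SE 0.12, adjusted p = 0.312). Mvk had the highest value (0.43, SE 0.23, adjusted p = 0.314). When all 13 libraries were fitted together, 5 genes were lower, namely Idi1, Fdft1, Msmo1, Ebp and Mylip.

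**Figure D3:**
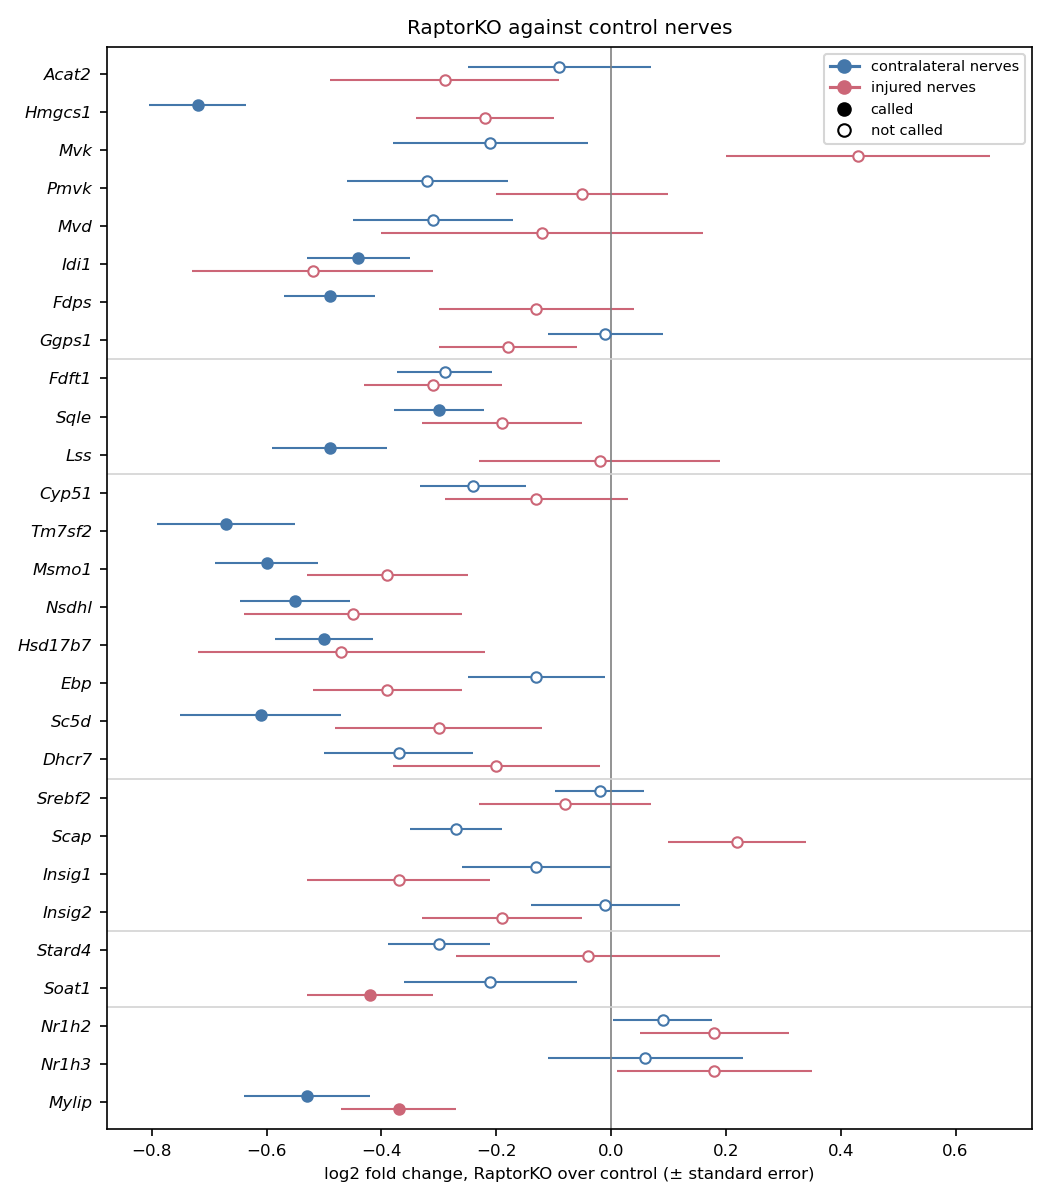
Log2 fold change of RaptorKO over control (horizontal axis, with standard errors) of the 28 genes in order of their roles, in contralateral (blue) and injured (red) nerves, filled where called. In contralateral nerves 26 of 28 genes lie below 0 and 11 are called, and in injured nerves 23 of 27 lie below 0 and 2 are called (Tm7sf2 was not tested there).

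Cell markers differed here as well. The SC and myelin markers summed to 1530 to 1835 CPM in control and 1171 to 1519 CPM in RaptorKO injured nerves (1 of 6 called lower), and all 5 endothelial markers were higher in RaptorKOs (206.1 to 311.3 against 363.5 to 563 CPM in sum). Mast cell markers summed to 8.472 to 52.21 CPM in controls against 101.7 to 194 CPM in RaptorKOs (4 of 5 called higher), and fibroblast markers to 4576 to 7006 against 6322 to 10550 CPM (2 of 5). Relative to the SC and myelin sum, the enzymes came to 24.9%, 23.3% and 27.6% in controls and to 23%, 23.6% and 31.2% in RaptorKOs, with overlapping groups. Against single markers the groups overlapped for Mbp, Mag, Prx and Sox10. The enzyme sum was lower in RaptorKOs without overlap against Egr2 and higher without overlap against S100b. S100b itself was lower in RaptorKOs (-1.09, SE 0.16, adjusted p = 0.0028). Macrophage markers, from cells that take up myelin debris and express Soat1, summed to 575.6 to 906.4 CPM in controls against 448 to 1055 CPM in RaptorKOs. The part of these cells in the differences of Soat1 and Mylip was not tested.

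The next question was how injury itself altered the pathway. After crush, most sterol synthesis transcripts fell in both genotypes, while Soat1 and Mylip rose. In controls the summed 19 enzymes went from 3043 to 3580 CPM to 418.3 to 428 CPM, and in RaptorKOs from 2217 to 2409 CPM to 341.8 to 365.1 CPM. In controls 24 of the 28 genes were lower and 3 higher in injured than in contralateral nerves, where 32.9% and 32.4% of 12430 genes tested were. In RaptorKOs 24 were lower and 2 higher, where 28.5% and 30.5% of 12515 genes tested were. A fall of more than 4-fold was seen for 15 genes in controls and 14 in RaptorKOs, where 6.33% and 5.15% of all genes tested fell as far. Tm7sf2 is in these counts and in those of lower genes. It passed the count filter only through contralateral nerves, as its injured libraries held 20 to 49 counts. The median log2 fold change (injured over contralateral) was -2.29 in controls and -2.07 in RaptorKOs.

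The largest falls in controls were those of Hmgcs1 (log2 fold change -4.45, SE 0.12, adjusted p = 8.00e-11), Idi1 (-3.95, SE 0.14, adjusted p = 3.31e-10) and Sc5d (-3.70, SE 0.18, adjusted p = 4.12e-09). Hmgcs1 kept 4.64% of its contralateral mean, Idi1 6.57% and Sc5d 7.82%. In RaptorKOs these genes kept 6.57%, 6.23% and 9.77%. The falls spanned the pathway, with Lss at -3.62 and -3.12 (controls and RaptorKOs), Cyp51 at -3.45 and -3.32, Hsd17b7 at -3.47 and -3.42, Fdps at -3.19 and -2.81, Msmo1 at -3.09 and -2.85, Sqle at -2.66 and -2.53, and Fdft1 at -2.62 in both. Tm7sf2 (-2.44 and -2.15), Mvd (-2.20 and -1.99), Nsdhl (-1.87 and -1.75), Pmvk (-1.85 and -1.56), Acat2 (-1.52 and -1.69) and Mvk (-1.32 and -0.65) fell less. Enzymes were thus not lost in equal measure. Dhcr7 (-0.75 and -0.56) and Ggps1 (-0.43 and -0.57) kept more than 60% of their contralateral level in both genotypes.

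The controllers of the pathway split. Srebf2 fell with the enzymes, by a log2 fold change of -2.38 (SE 0.13) in controls and -2.42 (SE 0.096) in RaptorKOs, which left 19.6% and 18.8% of its contralateral mean. Insig1, itself a target of SREBP2, fell by a log2 fold change of -2.90 (SE 0.13) and -3.12 (SE 0.13), whereas Insig2 was not called in either genotype (0.04 and -0.11). Scap fell modestly (-0.89 and -0.38). Stard4 fell by -2.61 and -2.32. The LXR genes Nr1h2 (-0.74 and -0.63) and Nr1h3 (-0.72 and -0.58) were also lower, and Nr1h2 has an annotated pseudogene that could take part of its reads.

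The genes that went the other way were Soat1, Mylip and, in controls, Ebp. Soat1 rose from 23.7, 25.9 and 30.0 CPM to 168, 147 and 144 CPM in controls (2.50, SE 0.11, adjusted p = 2.00e-09) and from 23.6, 17.8, 23.1 and 26.4 CPM to 115, 98.7 and 125 CPM in RaptorKOs (2.32, SE 0.14, adjusted p = 2.94e-07). It was the only gene of the 28 to rise more than 4-fold. Mylip rose by 0.77 (SE 0.095, adjusted p = 1.78e-05) in controls and 0.95 (SE 0.11, adjusted p = 2.65e-05) in RaptorKOs. Ebp, the only synthesis enzyme to rise, went from 25.0 to 25.4 CPM to 34.7 to 40.8 CPM in controls (0.52, SE 0.13, adjusted p = 0.00325) and had 0.28 (SE 0.13, adjusted p = 0.0887) in RaptorKOs.

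**Figure D4:**
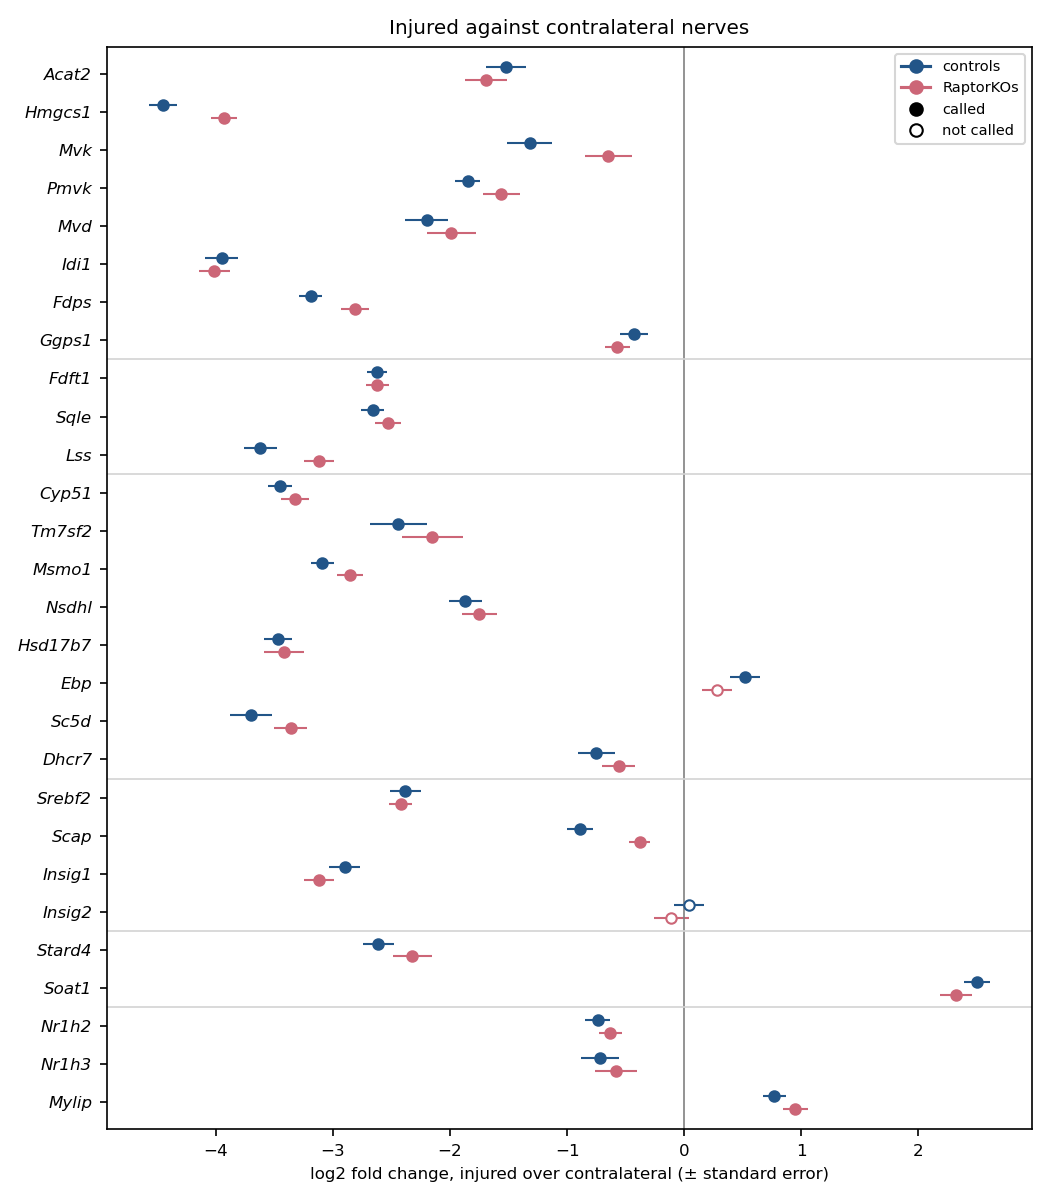
Log2 fold change of injured over contralateral nerves (horizontal axis, with standard errors) of the 28 genes in order of their roles, in controls (blue) and RaptorKOs (red), filled where called. The synthesis enzymes other than Ebp lie between -4.45 and -0.43 in both genotypes, Ebp, Soat1 and Mylip lie above 0, and Insig2 lies near 0.

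The nerve changed in its cells and myelin transcripts at the same time. SC and myelin markers summed to 30651 to 33074 CPM in control contralateral and 1530 to 1835 CPM in control injured nerves, and macrophage markers to 51.55 to 71.44 and 575.6 to 906.4 CPM. The summed enzymes were 9.22% to 11.7% of the SC and myelin sum in control contralateral nerves and 23.3% to 27.6% in control injured nerves, so the marker sum dropped further than the enzyme sum did. The 6 markers had log2 fold changes from -5.71 to -0.60 in controls, so this does not hold for each of them. The part of these shifts in the changes of the sterol genes was not tested.

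Whether injury acted differently in the 2 genotypes was tested with an interaction term in a model of all 13 libraries. None of the 28 genes was called in edgeR's quasi-likelihood test. There the effect of genotype was called more negative after injury for 1.41% of the 12851 genes tested and more positive for 1.07%. An unadjusted p below 0.05 in this test was found for 5 of the 28 genes and for 1827 of the 12851. DESeq2 called 1 gene, Hmgcs1. The largest value was that of Mvk (0.65, SE 0.3, adjusted p = 0.333), followed by Hmgcs1 (0.50, SE 0.14, adjusted p = 0.0705), Scap (0.49, SE 0.14, adjusted p = 0.0909) and Lss (0.47, SE 0.18, adjusted p = 0.241). For Hmgcs1 the difference between genotypes was -0.72 in contralateral and -0.22 in injured nerves. The contrast between 11 called genes in contralateral and 2 in injured nerves was therefore not shown to be a difference between the states of the nerve.

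Other genes of sterol metabolism were taken from a list of 30, of which 29 were in the table. These cover SREBP processing and degradation, use of isoprenoids, and sterol handling and oxysterols. Calls of these listed genes were not examined in the alternative analyses. In contralateral nerves 4 of the 26 tested were lower in RaptorKOs and 0 higher, where 5.68% and 4.49% of all genes tested were. They were Fntb, the catalytic subunit of farnesyltransferase (-0.74, SE 0.088, adjusted p = 5.00e-04), Icmt, which methylates prenylated proteins (-0.38, SE 0.081, adjusted p = 0.0163), Stard3, a late endosomal cholesterol carrier (-0.99, SE 0.18, adjusted p = 0.00661), and Abcg1, a sterol exporter and LXR target (-0.68, SE 0.12, adjusted p = 0.00577). Fntb fell from 147.7 to 163.3 CPM in controls to 84.84 to 102.5 CPM in RaptorKOs. The 8 genes of SREBP processing and degradation, among them the proteases that cleave SREBPs, had a median of -0.14 and none was called.

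In injured nerves 3 of the 29 were lower and 2 higher in RaptorKOs, where 4.44% and 4.09% of all genes tested were. Stard3 (-0.69, SE 0.12, adjusted p = 0.0063), Lipa, the lysosomal lipase that frees cholesterol from its esters (-0.58, SE 0.1, adjusted p = 0.0064), and Rnf145, a sterol-responsive ubiquitin ligase (-0.51, SE 0.1, adjusted p = 0.0122), were lower. The oxysterol-forming enzymes Ch25h (0.88, SE 0.24, adjusted p = 0.0482) and Cyp27a1 (0.61, SE 0.16, adjusted p = 0.0404) were higher, both close to the threshold. Lipa lay at 275.3 to 315.2 CPM in controls against 190.7 to 194.5 CPM in RaptorKOs, while Ch25h was scarce, at 6.237 to 10.42 and 11.67 to 16.06 CPM.

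After injury, 10 of 28 listed genes tested were lower and 8 higher in controls, and 8 were lower and 8 higher in RaptorKOs. These shares were near those of all genes tested (32.9% and 32.4% in controls, 28.5% and 30.5% in RaptorKOs). Lipa rose by 1.54 (SE 0.1) in controls and 1.13 (SE 0.097) in RaptorKOs, Stard3 by 0.62 (SE 0.14) and 0.95 (SE 0.16), and Ch25h by 1.53 (SE 0.34) and 2.13 (SE 0.24). Ch25h, counted among the higher genes, passed the count filter only through injured nerves. In contralateral nerves it lay at 1.827 to 4.368 CPM and was not tested between genotypes. Fntb fell with the sterol enzymes (-1.58, SE 0.091, and -1.08, SE 0.13). Cyp27a1, unlike Ch25h, also fell, by -0.91 (SE 0.16) in controls and -0.89 (SE 0.21) in RaptorKOs. The exporter gene Abca1, named here after its values were seen, had the highest value, 5.40 (SE 0.16) in controls and 5.59 (SE 0.28) in RaptorKOs. In the interaction 1.07% of all 12851 genes tested were called more positive and 1.41% more negative. Of the 29 listed genes tested there, only Abcg1 was called (0.77, SE 0.17, adjusted p = 0.0261). It had 58.6 to 73.76 CPM in control and 36.39 to 47.59 CPM in RaptorKO contralateral nerves, and 77.38 to 81.81 and 72.55 to 93.15 CPM in injured nerves, so the genotypes were apart before injury and overlapped after it.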

How the data were processed

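RNA was sequenced from 13 sciatic nerves. Per the labels and the study's methods, the authors trimmed the reads with Trimmomatic, aligned them to GRCm38 and estimated expression per gene with RSEM (version 1.2.22). The deposited values are these expected counts, not normalized for depth. Between 24.93% and 27.95% of nonzero values per library were not whole, since RSEM divides ambiguous reads among genes, and they were rounded here. The kit is named as TruSeq RNA in the labels and as a stranded kit in the methods, and whether counting used strand is not stated. Library totals were 8200458 to 13581775 counts. Of the 40787 genes, 40634 were matched to GENCODE M21 by gene ID.

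Groups were taken from the labels. Counts were analysed with edgeR 4.0.16 in R 4.3.3. Genes with at least 50 counts in at least 2 libraries of a comparison were tested, with TMM factors and the quasi-likelihood test. The exact test, as in the study, was an alternative. P-values were adjusted by Benjamini-Hochberg over all genes tested, and genes were called at an adjusted p below 0.05 and a fold change above 1.2. Fold changes are log2 with the default prior count, and the standard error (SE) is the log2 fold change without prior count divided by the square root of F. CPM values share 1 TMM scale over 13 libraries on 12851 genes. P-values measure the spread between these libraries, and groups of 3 or 4 limit what can be called. The titles give an injured and a contralateral nerve the same number, which was read as 1 mouse. On that reading libraries of 1 group are separate mice, while the injury comparisons and the interaction hold 2 nerves of most mice. Deviations from the group means of same-numbered nerves correlated at 0.086, 0.109 and 0.306 in controls and at -0.025, 0.239 and 0.186 in RaptorKOs. For differently numbered nerves the values were -0.192 to 0.113 in controls and -0.332 to 0.143 in RaptorKOs. As in the study, the fits had no term for the mouse, which was an alternative. In the genotype comparisons the same setting, a replicate block, fitted the replicate number, which there joins different mice. The other alternatives were DESeq2 1.42.0, RLE size factors, no count filter, all 13 libraries in 1 fit, a prior count of 2 and leaving out each library. The prior count of 2 is not among the alternatives counted for calls. The tests were tried on simulated counts.

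All 28 genes are named. Values per library are given for genes called in a genotype comparison or the interaction, for the 2 nearest the threshold in contralateral nerves, and listed pathway genes are named where called in such a comparison. Srebf2 and examples in injured nerves were added after their values were seen. The genes and lists were chosen with earlier results of these data known, so their counts are descriptions. Some marker genes are not reported here and are left out of the sums of SC and myelin markers. Promoter windows are from RefSeq (GRCm38.p6).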

Additional observations from a re-analysis of the deposited data

Results flagged for a closer look

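In groups of 4 libraries, a library was looked at again where its gap to the nearest other library exceeded Dixon's critical value as a share of the group's whole range. This was checked for the 28 genes in RaptorKO contralateral nerves, and chance gives about 1 in 20. Hsd17b7 in RaptorKO contralateral 4 was the highest of 4, with a gap of 0.843 of the range (86.8 CPM against 80.0 to 81.1 CPM). Stard4 in RaptorKO contralateral 2 was the lowest of 4, with a gap of 0.844 of the range (41.2 CPM against 46.7 to 47.7 CPM). Both libraries remained below every control for these genes.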

How the results depend on the processing

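Among the 28 genes, no log2 fold change of a called gene changed sign in any alternative. In contralateral nerves, 10 (no count filter) to 13 (DESeq2) of the 28 genes were lower, and 7 to 12 when 1 library was left out. In injured nerves, 1 gene was lower with no count filter, 5 with all 13 libraries in 1 fit, and 0 to 1 when 1 library was left out. After injury, 24 genes were lower in controls in every alternative and 23 to 24 in RaptorKOs, where Mvk was lost without RaptorKO injured 3 (adjusted p = 0.0649) and Nr1h3 without RaptorKO injured 1 (adjusted p = 0.0761). Ebp was also higher in RaptorKOs with all 13 libraries in 1 fit (adjusted p = 0.039). In the interaction DESeq2 called 1 gene, Hmgcs1 (adjusted p = 0.0151), and the other alternatives none.

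Within a genotype a number was read as marking the 2 nerves of a mouse. With the mouse as a replicate block, no call of the 28 genes changed in either injury comparison or in the interaction (Hmgcs1 0.49, adjusted p = 0.0997; Scap 0.48, adjusted p = 0.0756). Between genotypes a number marks different mice, and deviations of same-numbered libraries correlated at -0.087 to 0.325. A replicate block there gave 12 of the 28 genes lower in contralateral nerves and 0 in injured nerves (Soat1 adjusted p = 0.0639).

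Over all genes, calls ranged more widely. In contralateral nerves 675 were lower (278 without control contralateral 2, 931 with the replicate block) and 533 higher (246 and 880). In injured nerves 535 were lower (271 without control injured 2, 700 with no count filter) and 493 higher (176 and 856). In the interaction 181 were more negative (78 without control contralateral 2, 353 with DESeq2) and 137 more positive (54 and 245). Depth limited Tm7sf2, at 1.84 to 4.51 CPM in injured nerves. The cause of these changes was not tested.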
